A study of Homo sapiens with 12 samples.

Results

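Late-passage human lung fibroblasts that had kept dividing at 3% oxygen were compared, gene by gene, with cells of the same line that had become senescent at 20% oxygen. The cells were IMR-90, an untransformed fibroblast line from fetal lung with a limited replicative life span. The old cells at 3% oxygen were nonsenescent at population doubling 53 (3 arrays), and the senescent cells at 20% oxygen had reached population doubling 48 (3 arrays), so 6 of the 12 arrays of the series enter the comparison. The other 6 arrays hold young cells at population doubling 30 under 3% oxygen and under 20% oxygen (3 each), and they are used for the oxygen difference of young cells. Each oxygen level had its own incubator, and all cells were grown in serum-containing medium and harvested before confluence. Oxygen level, incubator, senescence and the number of doublings therefore differ together between the old and the senescent cells, and their shares cannot be told apart. The labels call the samples biological replicates but do not describe separate cultures, so the p-values measure the spread between these samples. In all, 19775 genes were compared.

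Fibroblasts in culture stop dividing after a limited number of doublings. The arrest is held by the p21 and p16 inhibitors of cyclin-dependent kinases, which keep the retinoblastoma family of proteins active and so keep the genes of DNA replication and mitosis off. Senescent cells stay alive, lose the nuclear lamina protein lamin B1 and secrete cytokines, growth factors and matrix proteases, a set known as the senescence-associated secretory phenotype. Oxygen itself is sensed through the hypoxia-inducible factors (HIF), which switch on glycolysis genes, and growth at atmospheric oxygen is a known oxidative load for cultured fibroblasts.

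The deposited values are log2 values from which each probe set's own median across arrays had been taken away. A value of 0 is therefore the middle of that gene's own values, and levels cannot be compared between genes, nor can it be read whether a gene is expressed at all. A difference of 1 on this scale is a 2-fold change. Differences are given as old cells at 3% oxygen minus senescent cells at 20% oxygen with the standard error (SE) from a limma fit of all arrays, n = 3 arrays per group, and a gene was called at a Benjamini-Hochberg adjusted p under 0.05 over all genes tested. On the first principal axis, which held 34.3% of the variance, every 3% oxygen array lay on one side (12.6 to 34.44) and every 20% oxygen array on the other (-29.24 to -10.88). The second axis (24.8%) split arrays within groups: old replicate 3 lay at 0.56 against -26.72 and -29.17 for the other old arrays, and senescent replicate 2 at -26.03 against -2.59 and 6.82. The difference between the 3′ and 5′ control probe sets of beta-actin is a measure of RNA integrity. It was -0.2188, -0.1346 and 0.0162 in old cells and 0.0994, 0.0248 and 0.348 in senescent cells, so the groups only narrowly did not overlap. The same difference for GAPDH did overlap, at -0.0679, -0.0282 and -0.0074 in old cells and -0.0781, -0.0587 and 0.0539 in senescent cells. With the beta-actin difference as a covariate 2030 genes were called, against 2176 without it. The 128 called genes described here all kept their call and direction in that fit, with differences of 0.844 to 1.20 times those without the covariate. These genes were named mainly for large differences on the same arrays, so this does not describe all 2176 calls.

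Of the 19775 genes, 2176 (11.0%) were called. In old cells at 3% oxygen 1304 genes (6.59%) were higher and 872 (4.41%) were lower than in senescent cells at 20% oxygen. Counts of list members given below are to be set against these shares. A change of at least 2-fold was reached by 319 genes higher in old cells (1.61%) and by 151 lower (0.764%). The median absolute difference of the called genes was 0.6, and 76.4% of all genes differed by less than 0.25. The median difference over all genes was -0.02. All 3 old arrays lay above all 3 senescent arrays for 12.8% of genes and below them for 11.5%.

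Young cells gave an oxygen comparison from other arrays: young at 3% minus young at 20% oxygen called 2333 genes (11.8%), 980 higher (4.96%) and 1353 lower (6.84%). Of the 2176 genes called between old and senescent cells, 813 were called in the same direction in young cells (37.4% of the late calls and 34.8% of the young ones), 152 in the opposite direction (6.99% of the late calls), and 1211 were not called there. Whether called or not, 72.5% of the late calls had the same sign in young cells, against 52.6% of all genes. The 2 differences correlated at r = 0.41 across genes, which are not independent replicates. For 1273 genes (6.44%) the late and the young difference differed from each other by the fit's own test of that contrast, here called the test of the 2 differences; the late difference was the higher one for 4.37% of genes and the lower one for 2.06%.

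**Figure D1:**
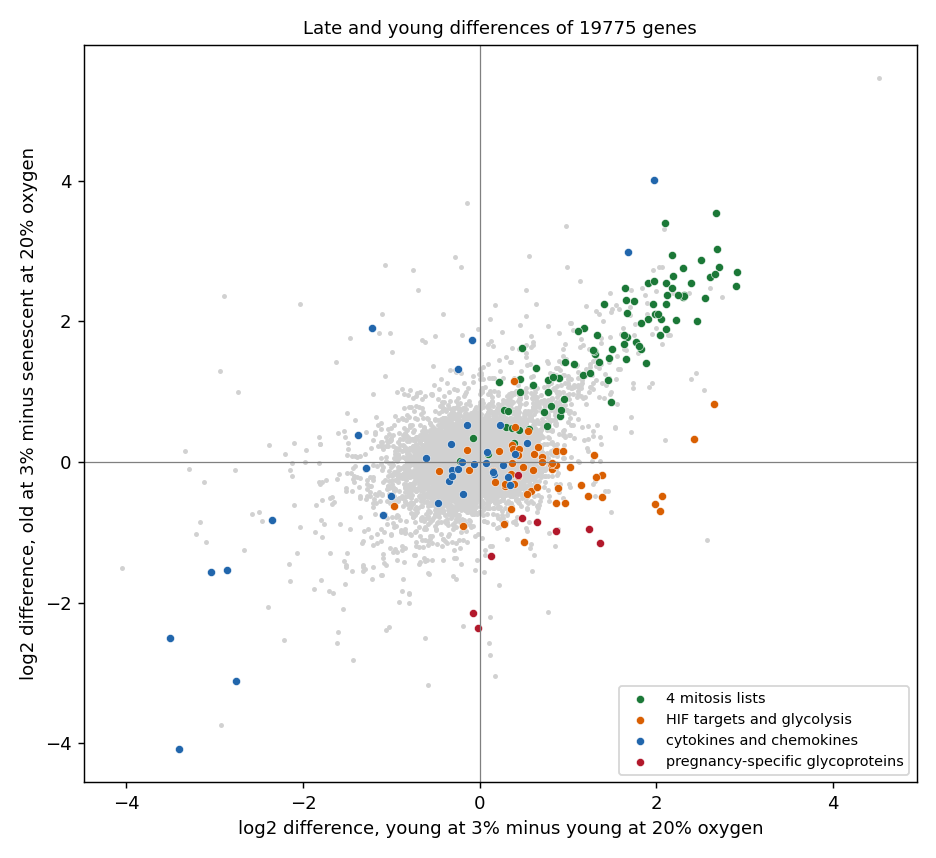
Log2 difference of each gene, old cells at 3% oxygen minus senescent cells at 20% oxygen (vertical axis), against the difference between young cells at 3% and at 20% oxygen (horizontal axis); each point is a gene, with grey for all 19775 genes. The 4 mitosis lists lie in the upper right (medians 1.74 and 1.64), the HIF and glycolysis genes to the right of zero near the horizontal line, and the pregnancy-specific glycoproteins below it.

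Nearly all measured genes of mitosis were higher in old cells at 3% oxygen than in senescent cells at 20% oxygen. Mitotic cyclins and kinases drive entry into division, kinetochore proteins attach chromosomes to the spindle, kinesin motors build and elongate the spindle, and condensin compacts chromosomes. Across these 4 lists, 81 of 88 measured genes were called higher in old cells at 3% oxygen and 0 lower, with a median difference of 1.74 against -0.02 over all genes. By list, 16 of 18 mitotic cyclins, kinases and phosphatases were called higher (median 1.51), 26 of 27 kinetochore and spindle checkpoint genes (median 1.46), 25 of 26 genes of spindle motors and cytokinesis (median 2.27), and 14 of 17 genes of anaphase, condensin and chromosome structure (median 1.65). The 7 genes not called all had differences above 0, and the lowest of the 88 was 0.02. In RNA from whole cultures, fewer dividing cells and less RNA of these genes per cell cannot be told apart.

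The promoters of 5 of these genes are printed to show 2 short elements near the gene start, the first found in KIF11, HMMR, NCAPG and BUB1B and the other in CDK1. The cell cycle genes homology region (CHR), written TTTGAA, is known as the element through which the DREAM and MuvB complexes repress mitotic genes in resting cells, and TTGGCGC is a core of E2F sites. Each sequence holds the 120 bases before the RefSeq gene start (GRCh38.p14, all on the plus strand, 5′ to 3′), with matches to either motif on either strand in capitals.
KIF11: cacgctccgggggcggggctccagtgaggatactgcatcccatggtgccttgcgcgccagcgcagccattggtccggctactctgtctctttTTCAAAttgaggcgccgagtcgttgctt
HMMR: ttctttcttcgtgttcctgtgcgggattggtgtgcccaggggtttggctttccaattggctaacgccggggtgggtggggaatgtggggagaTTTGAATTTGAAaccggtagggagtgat
NCAPG: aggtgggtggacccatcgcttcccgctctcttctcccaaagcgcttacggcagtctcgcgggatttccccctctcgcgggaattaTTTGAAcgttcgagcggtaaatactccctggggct
BUB1B: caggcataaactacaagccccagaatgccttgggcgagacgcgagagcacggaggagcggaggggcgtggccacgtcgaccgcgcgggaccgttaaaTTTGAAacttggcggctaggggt
CDK1: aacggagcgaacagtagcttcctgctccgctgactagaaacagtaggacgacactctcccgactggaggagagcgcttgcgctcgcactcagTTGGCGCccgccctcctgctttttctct
They lie at chr10:92593010-92593129 (KIF11), chr5:163460512-163460631 (HMMR), chr4:17810859-17810978 (NCAPG), chr15:40160949-40161068 (BUB1B) and chr10:60778211-60778330 (CDK1). The KIF11 match is on the minus strand and begins 28 bases before the start, HMMR has 2 adjacent matches at 28 and 22 bases, NCAPG has its match at 35 and BUB1B at 23, while the CDK1 stretch holds the E2F core at 28 bases.

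In windows from 250 bases before to 50 after the first listed start, TTTGAA on either strand was present in 20 of 23 spindle and cytokinesis genes with a promoter entry, in 11 of 20 kinetochore genes, in 10 of 16 anaphase and condensin genes and in 5 of 14 mitotic cyclin and kinase genes. Over the 4 lists it was present in 46 of 73 genes (63.0%), against 11.9% of the 15384 tested genes with an entry. Among the 35 replication genes with an entry 0 held TTTGAA and 10 (28.6%) held TTGGCGC, which occurred in 4.07% of tested genes. The mitosis lists held TTGGCGC too, in 8 of 73 genes (11.0%), with 5 of 23 spindle and cytokinesis genes (21.7%) among them. These matches describe letters in a window and do not show a site in use.

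KIF11, the kinesin that pushes spindle poles apart, had values of 1.38, 1.34 and 1.43 on the old arrays and -1.29, -1.66 and -1.76 on the senescent arrays. The groups lay far apart, and the difference was 2.95 ± 0.13 (SE), or 7.73-fold (limma adjusted p = 2.49e-08). NDC80, the kinetochore protein that grips microtubules, had 2.34, 2.23 and 1.68 in old cells against -1.20, -1.59 and -1.57 in senescent cells, an 11.6-fold difference (3.54 ± 0.16, adjusted p = 3.05e-08). KIF18B, a kinesin that trims astral microtubules, stood at 1.33, 1.20 and 1.21 in old cells against -2.14, -1.97 and -2.36 in senescent cells, which made it 10.6-fold higher (3.40 ± 0.12, adjusted p = 4.53e-09). BUB1B, the checkpoint kinase relative that delays anaphase, had values between 1.46 and 1.54 in old cells and between -2.09 and -1.07 in senescent cells, and was 8.16-fold higher.

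The switch genes of mitosis behaved alike. CCNB1, the cyclin B1 that activates CDK1, was at 1.42, 1.23 and 1.36 in old cells against -1.18, -1.35 and -1.10 in senescent cells (2.55 ± 0.11, 5.85-fold, adjusted p = 2.05e-08). CDK1 itself was 5.82-fold higher, CCNA2 (cyclin A2) 4.76-fold, and FOXM1, a transcription factor of mitotic genes, 5.20-fold. PBK, a mitotic kinase, was 7.37-fold higher and HMMR, a spindle assembly protein, 6.89-fold. NCAPG, a condensin subunit, was 6.77-fold higher, TOP2A, which untangles DNA, 4.32-fold, and MKI67, the proliferation marker Ki-67, 3.20-fold. Probe sets ran from 0.71 to 2.99 for TOP2A and from 0.68 to 2.18 for MKI67, so the size of these changes depends on the probe set.

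Young cells at 20% oxygen had means near those of the senescent cells on these lists. The mean of the spindle and cytokinesis list was 1.04 to 1.35 on the old arrays and -0.94 to -0.79 on the senescent arrays, with group means of 0.80 in young cells at 3% and -1.02 in young cells at 20% oxygen. In young cells 74 of the 88 mitosis genes were called higher at 3% oxygen and 0 lower (median 1.64). Of the 13 mitosis genes given with values, 3 had a late difference larger than the young one by the test of the 2 differences: KIF11 by 0.77 (adjusted p = 0.0287), NDC80 by 0.85 (adjusted p = 0.0487) and KIF18B by 1.30 (adjusted p = 0.000514). The calls of KIF11 and NDC80 on this test were lost without several single arrays (adjusted p up to 0.0757 and 0.121) and with the replicate number as a block (adjusted p = 0.0598 and 0.0667).

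**Figure D2:**
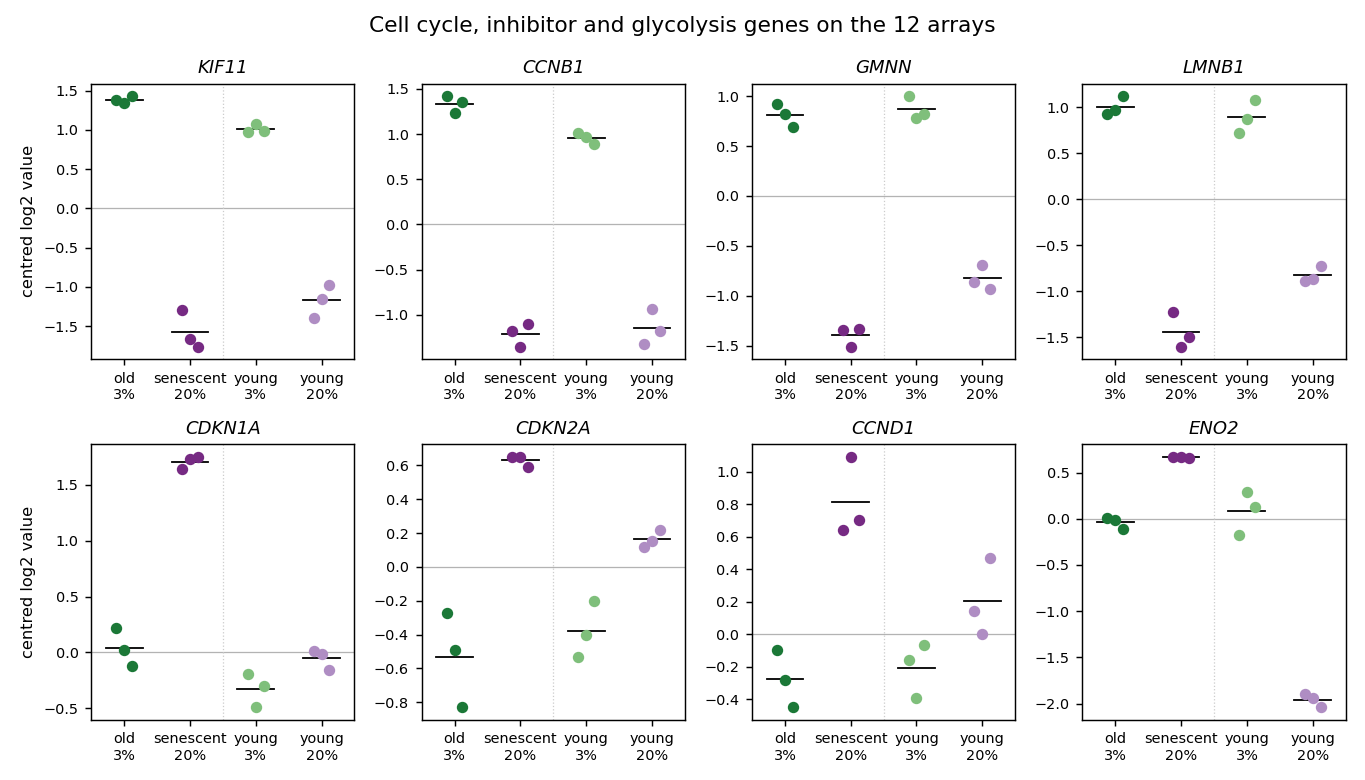
Centred log2 values of 8 genes on each of the 12 arrays; points are arrays, bars are group means, and each panel has its own vertical scale. KIF11, CCNB1, GMNN and LMNB1 were high in both 3% oxygen groups and low in both 20% groups, CDKN1A was high in the senescent group, and ENO2 was lowest in young cells at 20% oxygen (mean -1.96).

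DNA replication genes were higher in old cells by smaller steps. Of 42 genes of origin licensing and the replication fork, 30 were called higher and 0 lower, with a median of 0.82, and in young cells 29 were called higher at 3% oxygen (median 0.80). GMNN, the geminin that prevents a second round of licensing, had 0.92, 0.82 and 0.69 in old cells against -1.34, -1.51 and -1.33 in senescent cells (2.20 ± 0.10, 4.61-fold, adjusted p = 3.16e-08). GINS1, a subunit of the replicative helicase, was 4.50-fold higher, POLE2, a subunit of the leading-strand polymerase, 4.29-fold, and RFC4, a clamp loader subunit, 2.77-fold.

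Nucleotide synthesis followed in part, with 8 of 14 genes called higher, 0 lower and a median of 0.70. RRM2, the regulated subunit of ribonucleotide reductase, had 0.87, 0.82 and 0.81 in old cells against -1.28, -1.66 and -1.65 in senescent cells, a 5.16-fold difference (adjusted p = 7.05e-08). TK1 (thymidine kinase) was 2.37-fold and TYMS (thymidylate synthase) 2.30-fold higher, with TYMS probe sets from 0.42 to 1.66. CTPS1, which makes CTP, was 2.29-fold higher (1.19 ± 0.13) but differed by 0.11 in young cells, and the test of the 2 differences gave an adjusted p of 0.00396.

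Genes of homologous recombination and Fanconi repair, which mend broken and crosslinked DNA, were called higher in 15 of 20 cases and lower in 0 (median 0.98). Young cells had 16 of the 20 called higher at 3% oxygen and 0 lower (median 0.83). UBE2T, the ubiquitin enzyme of the Fanconi pathway, was 4.79-fold higher, EXO1, a DNA end-trimming nuclease, 4.32-fold, and BRIP1, a helicase partner of BRCA1, 3.91-fold.

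Of 22 lamina and chromatin genes known to decline in senescence, 17 were called higher in old cells and 0 lower (median 0.95). Young cells, which were not senescent, had 15 of the 22 called higher at 3% oxygen and 0 lower (median 0.74). On the test of the 2 differences 5 of the 22 were called higher and 0 lower. LMNB1, lamin B1, had 0.93, 0.97 and 1.12 in old cells and -1.23, -1.60 and -1.50 in senescent cells, without overlap (2.45 ± 0.12, 5.47-fold, adjusted p = 4.4e-08). EZH2, the Polycomb enzyme that methylates histone H3, had 0.61, 0.47 and 0.47 in old cells against -1.88, -1.83 and -1.94 in senescent cells, a 5.27-fold difference. Young cells at 20% oxygen were not as low: EZH2 averaged -0.78 there and LMNB1 -0.83, and for both genes the late difference exceeded the young one (by 0.92, adjusted p = 0.0106, and by 0.73, adjusted p = 0.0231, which without single arrays ran up to 0.0621). HMGB3, a chromatin protein of the HMG box family, was 3.58-fold higher and HMGB2 1.79-fold, although the 2 probe sets of HMGB2 gave 0.08 and 1.60.

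Of 14 clustered histones measured, 5 were called lower in old cells, 0 higher and 9 were not called (median -0.09), the largest difference being that of H2AC6, at -0.63, -0.93 and -0.80 in old cells against 1.61, 1.59 and 1.61 in senescent cells (a 5.25-fold lower value, adjusted p = 1.05e-08). H2BC21 was 3.33-fold lower and H2BC12 3.21-fold. Probe sets of near-identical histone genes may share targets, so the single genes are uncertain.

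Of the inhibitors of cyclin-dependent kinases, CDKN1A, CDKN2A and CDKN2B were lower in old cells. CDKN1A, which encodes p21, had 0.22, 0.02 and -0.12 in old cells against 1.64, 1.73 and 1.75 in senescent cells, without overlap (-1.67 ± 0.11, 3.18-fold lower, adjusted p = 4.86e-07). In young cells the difference of CDKN1A between 3% and 20% oxygen was -0.27 (adjusted p = 0.152), and the late and young differences were apart by -1.39 (adjusted p = 0.000161). CDKN2A, the locus of p16 and ARF, had -0.27, -0.49 and -0.83 in old cells against 0.65, 0.65 and 0.59 in senescent cells (-1.16 ± 0.13, 2.23-fold lower). CDKN2A was also lower at 3% oxygen in young cells, with a difference of -0.54 (adjusted p = 0.0157), and the test of the 2 differences did not call it (-0.61, adjusted p = 0.0765). CDKN2B, which encodes p15, was 2.22-fold lower, and its difference in young cells was of nearly the same size (-1.15 late and -1.16 young, adjusted p = 0.971 for the test of the 2 differences).

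Probe sets disagreed for these neighbours: those of CDKN2A ran from -1.94 to 0.07 and those of CDKN2B from -2.16 to -0.14. The 7 measured inhibitors held 3 genes called lower and 1 called higher, CDKN3, a phosphatase despite its name (5.10-fold higher). Of the D cyclins, which act before S phase, CCND1 and CCND2 were lower in old cells, while CCND3, added here after its values were seen, differed by 0.16 ± 0.12 and was not called (adjusted p = 0.597). CCND1 had -0.10, -0.28 and -0.45 in old cells against 0.64, 1.09 and 0.70 in senescent cells (2.13-fold lower, adjusted p = 0.000447), and CCND2 was 2.80-fold lower with probe sets from -2.67 to -0.15. In the same list of 20 cyclins, kinases and E2F factors 8 were called higher, led by the CDK subunits CKS1B (3.72-fold) and CKS2 (3.06-fold), and 2 lower.

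Targets of p53 other than CDKN1A were lower in old cells in 10 of 27 cases, higher in 1, with a median of -0.19. Young cells were similar, with 8 of the 27 called lower at 3% oxygen and 2 higher (median -0.17). On the test of the 2 differences 4 of the 27 were called lower and 1 higher. RRM2B, the p53-controlled ribonucleotide reductase subunit, had 0.00, -0.06 and -0.04 in old cells against 1.28, 1.11 and 1.30 in senescent cells (-1.26 ± 0.10, 2.40-fold lower, adjusted p = 2.37e-06). SPATA18, a mitochondrial quality control protein, was 2.18-fold lower, GADD45A, a stress and repair protein, 2.15-fold, and ZMAT3, an RNA-binding p53 effector, 1.99-fold. Probe sets of SPATA18 gave -1.9 and -0.35, and those of ZMAT3 ran from -1.31 to -0.0. GDF15, a secreted stress factor, was 1.68-fold lower (adjusted p = 0.0297), and its call was lost without senescent replicate 2, without each of the 3 old replicates in turn (adjusted p up to 0.113) and with the replicate number as a block (adjusted p = 0.0551). The p53 inhibitor MDM2 differed by -0.21 ± 0.08 and was not called (adjusted p = 0.15).

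**Figure D3:**
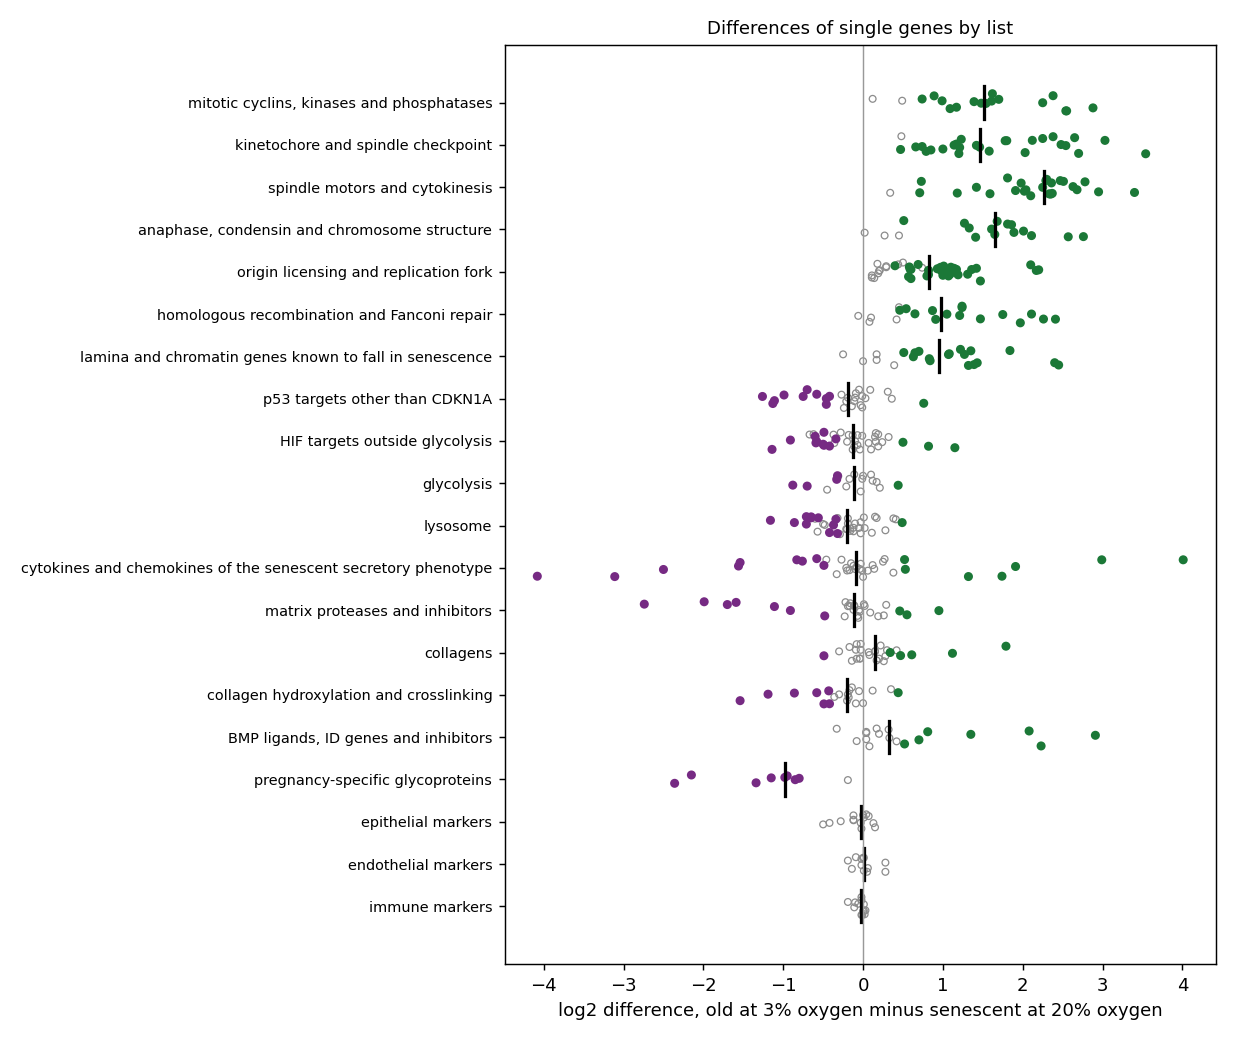
Log2 difference, old cells at 3% oxygen minus senescent cells at 20% oxygen, for every measured gene of 20 lists; green points were called higher in old cells, purple points lower, open points were not called, and black bars are list medians. The cell cycle lists lie to the right, the pregnancy-specific glycoproteins to the left, and the cytokines and proteases spread both ways.

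Cytokines and chemokines of the senescent secretory phenotype split in both directions. Of 36 measured, 7 were called higher in old cells and 9 lower, and the median was -0.09. PTGS2, the cyclooxygenase-2 that makes prostaglandins, had 1.91, 1.71 and 1.77 in old cells against -1.90, -2.79 and -1.95 in senescent cells (4.01 ± 0.19, 16.1-fold higher, adjusted p = 3.65e-08). Its probe sets gave 3.05 and 4.97. IL1B, the inflammatory cytokine interleukin-1 beta, had 2.25, 1.89 and 1.65 in old cells against -1.21, -0.68 and -1.29 in senescent cells, a 7.95-fold difference. Both were also higher at 3% oxygen in young cells, by 1.98 and 1.68, which was less than the late differences (adjusted p = 0.000657 for PTGS2 and 0.00757 for IL1B).

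CXCL8 and IL6 are the interleukin-8 chemokine and the interleukin-6 cytokine by which the senescent secretory phenotype is often recognised, and both were higher in the old, nonsenescent cells. CXCL8 had 0.55, 0.49 and 0.39 in old cells against -1.32, -1.50 and -1.49 in senescent cells (1.91 ± 0.11, 3.77-fold, adjusted p = 1.39e-07), with probe sets at 1.19 and 2.64. IL6 had 0.22, 0.09 and 0.01 in old cells against -1.04, -1.26 and -1.35 in senescent cells (1.32 ± 0.12, 2.50-fold, adjusted p = 1e-05). In young cells CXCL8 was lower at 3% oxygen by 1.22 and IL6 differed by -0.25 without being called, and the test of the 2 differences gave 3.13 for CXCL8 (adjusted p = 3.05e-07) and 1.57 for IL6 (adjusted p = 0.000142). IL1A, the upstream cytokine of this set, differed by 0.27 ± 0.23 and was not called (adjusted p = 0.651).

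Other members of that list, among them VCAM1, were lower in old cells, and so was the antioxidant enzyme SOD2. VCAM1, the adhesion receptor for leukocytes, showed the largest lower value of all genes that the naming rule takes, with -2.83, -3.16 and -3.21 in old cells against 0.93, 1.06 and 1.04 in senescent cells (-4.08 ± 0.13, 16.9-fold lower, adjusted p = 2.49e-09). CCL2, the monocyte chemokine MCP-1, had -2.03, -2.26 and -3.18 in old cells against 0.61, 0.70 and 0.55 in senescent cells (8.64-fold lower, adjusted p = 1.66e-06). PTX3, a secreted pattern recognition protein, was 5.65-fold lower, and SOD2, the mitochondrial superoxide dismutase, 1.40-fold. All 4 were lower at 3% oxygen in young cells too, with differences of -3.40 (VCAM1), -2.76 (CCL2), -3.51 (PTX3) and -1.0 (SOD2), and the young cells at 20% oxygen had higher values than the senescent cells (group means 2.29 for VCAM1, 2.02 for CCL2 and 2.78 for PTX3).

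Matrix proteases and their inhibitors had 7 genes called lower in old cells and 3 higher of 28. MMP1, interstitial collagenase, had 0.02, -0.15 and -0.37 in old cells against 1.79, 1.84 and 1.84 in senescent cells (-1.99 ± 0.12, 3.98-fold lower, adjusted p = 1.96e-07). MMP3, stromelysin-1, had -0.35, -0.23 and -0.19 in old cells against 1.56, 0.97 and 1.47 in senescent cells (3.01-fold lower, adjusted p = 0.000101). CPA4, a secreted carboxypeptidase, was 6.67-fold lower, and ADAMTS1, an aggrecan-cutting protease, 3.25-fold. CPA4 differed by 0.12 between the young groups, and its late difference was lower by 2.86 (adjusted p = 7.5e-07).

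**Figure D4:**
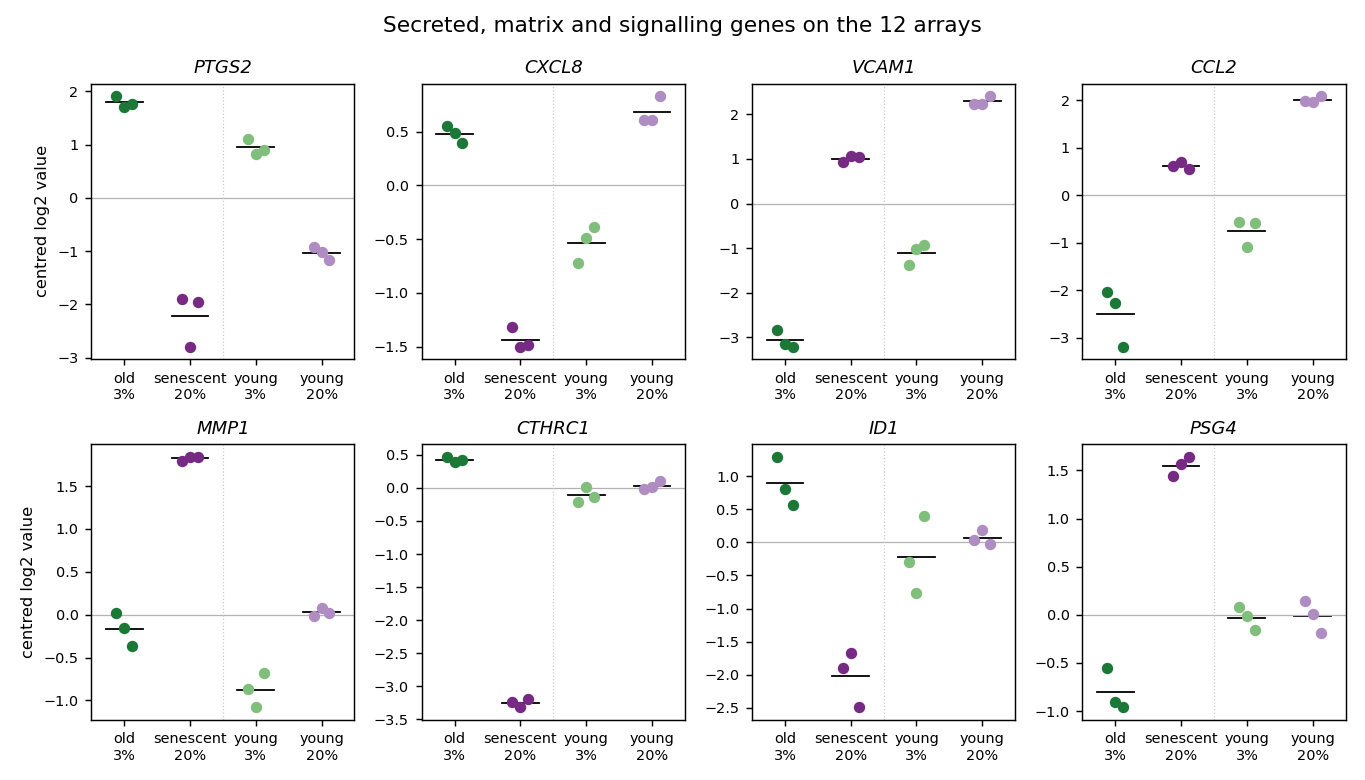
Centred log2 values of 8 secreted, matrix and signalling genes on the 12 arrays; points are arrays, bars are group means, and each panel has its own vertical scale. PTGS2 and CXCL8 were higher and VCAM1, CCL2, MMP1 and PSG4 lower in old than in senescent cells, and CTHRC1 and ID1 were low in the senescent group (means -3.25 and -2.02).

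Of 27 collagen chains, 5 were called higher in old cells (18.5%, against 6.59% of all genes) and 1 lower (3.7%, near the 4.41% of all genes), with a median of 0.15. COL5A3 was 3.46-fold higher, COL11A1 2.17-fold and COL3A1, a main fibrillar chain, 1.52-fold, and COL8A1 was 1.41-fold lower. Of 20 genes of collagen hydroxylation and crosslinking, 7 were called lower and 1 higher (median -0.20). Lysyl oxidases, which crosslink collagen and elastin, were among them: LOXL3 had 0.13, 0.03 and -0.72 in old cells against 1.36, 1.53 and 1.16 in senescent cells (2.90-fold lower, adjusted p = 0.000176), LOXL4 was 2.28-fold lower and LOXL1 1.82-fold. The 2 probe sets of LOXL4 gave -2.25 and -0.14.

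Among 43 other matrix proteins 5 were called higher and 10 lower. CTHRC1, a secreted collagen triple helix protein of repairing tissue, had 0.47, 0.39 and 0.42 in old cells against -3.24, -3.32 and -3.19 in senescent cells, a 12.8-fold difference with the smallest adjusted p of any gene named here (3.68 ± 0.09, adjusted p = 2.27e-10). Its young difference was -0.14 (adjusted p = 0.361), and the low value was in the senescent group, with means of -0.11 and 0.03 in young cells at 3% and at 20% oxygen. VCAN, the proteoglycan versican, had 0.99, 0.90 and 0.79 in old cells against -0.70, -0.82 and -0.92 in senescent cells (3.27-fold higher). BGN, the proteoglycan biglycan, was 2.66-fold lower, and POSTN, the matricellular periostin, 2.17-fold, with POSTN probe sets from -2.31 to -0.18.

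Contractile genes of the myofibroblast state were split, with 3 of 22 called higher (13.6%, against 6.59% of all genes) and 4 lower (18.2%, against 4.41%). ACTA2, smooth muscle actin, differed by 0.17 ± 0.11 and was not called (adjusted p = 0.525). TAGLN, an actin-binding protein of smooth muscle, was 1.54-fold lower, a call lost with the most variable probe set per gene in place of the average (-0.51, adjusted p = 0.134). ACTC1, cardiac actin, was 1.87-fold higher.

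Inhibitor-of-differentiation (ID) genes, which block basic helix-loop-helix factors and are standard targets of bone morphogenetic proteins (BMP), were all higher in old cells. ID1 had 1.29, 0.81 and 0.57 in old cells against -1.90, -1.67 and -2.49 in senescent cells (2.91 ± 0.28, 7.53-fold, adjusted p = 1.44e-05). ID3 had 0.83, 0.71 and 0.63 in old cells against -1.38, -1.46 and -1.67 in senescent cells (4.68-fold, adjusted p = 3.34e-07), ID2 was 2.55-fold higher and ID4 4.24-fold, with ID4 probe sets from -0.01 to 3.62. The young differences were -0.28 for ID1, 0.18 for ID3 and 0.04 for ID2, none of them called, and 0.53 for ID4, and each late difference exceeded the young one (by 3.20, 2.05, 1.31 and 1.55, adjusted p = 0.00034, 5.29e-05, 0.000225 and 2.19e-05 in the order ID1, ID3, ID2, ID4). In the whole BMP list 7 of 18 genes were called higher and 0 lower.

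Genes of the TGF-β pathway, the profibrotic relative of BMP signalling, had 6 of 19 called higher (31.6%) and 1 lower (5.26%, near the 4.41% of all genes). SMAD7, the feedback inhibitor of the receptors, had 0.41, 0.29 and 0.16 in old cells against -1.29, -1.58 and -1.39 in senescent cells (1.71 ± 0.15, 3.26-fold, adjusted p = 7.59e-06). FST, the activin antagonist follistatin, was 2.57-fold higher and INHBA, the activin A subunit, 1.78-fold, while the ligand TGFB2 was 1.91-fold lower. Probe sets ran from 0.27 to 1.39 for INHBA and from -1.46 to -0.06 for TGFB2.

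Wnt genes were called higher in 4 of 26 cases (15.4%, against 6.59% of all genes) and lower in 5 (19.2%, against 4.41%). WNT2, a ligand of lung mesenchyme, had 0.96, 0.69 and 0.68 in old cells against -1.38, -1.87 and -1.13 in senescent cells (2.24 ± 0.19, 4.72-fold higher), whereas in young cells it was lower at 3% oxygen by 2.03, so that the 2 differences were 4.27 apart (adjusted p = 1.48e-06). DKK1, a secreted Wnt antagonist, was 2.26-fold higher. VANGL2, a membrane protein of planar cell polarity, was 7.08-fold lower.

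Among Notch genes HEY1, a target repressor, was 2.50-fold higher and the ligand-like DNER 2.45-fold, while the receptors NOTCH3 and NOTCH2 were 1.41-fold and 1.34-fold lower. Of 30 growth factors and receptors 3 were called higher (10.0%, against 6.59% of all genes) and 7 lower (23.3%, against 4.41%). Among the latter were the IGF-binding proteins IGFBP5 (2.75-fold lower, probe sets from -2.01 to -0.42), IGFBP2 (2.39-fold) and IGFBP4 (1.81-fold). Of 23 immediate-early factors 3 were called higher and 6 lower: NR4A2, an orphan nuclear receptor, had 2.16, 1.85 and 1.56 in old cells against -0.92, -1.16 and -0.65 in senescent cells (6.81-fold higher), and JUN was 1.91-fold lower. Probe sets of NR4A2 ran from 2.01 to 3.69. FOS was 1.98-fold higher in old cells, but in young cells lower at 3% oxygen by 2.74, the group mean of young cells at 20% oxygen being 2.56.

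The HIF targets showed little of the oxygen difference seen in young cells. Of 37 HIF targets outside glycolysis, 3 were called higher in old cells and 10 lower (median -0.13), whereas in young cells 25 were called higher at 3% oxygen and 2 lower (median 0.60). Of 17 glycolysis genes 1 was called higher and 4 lower (median -0.11), against 13 higher and 0 lower in young cells (median 0.55). The list mean of the HIF targets was -0.02 to 0.15 on the old arrays and 0.17 to 0.27 on the senescent arrays, with group means of 0.04 in young cells at 3% and -0.71 in young cells at 20% oxygen. The low group was thus the young cells at 20% oxygen, and the senescent cells, although at 20% oxygen, stood with the 3% oxygen cells or above them.

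ENO2, a glycolytic enolase, had 0.01, -0.01 and -0.11 in old cells against 0.67, 0.67 and 0.66 in senescent cells (-0.70 ± 0.11, 1.63-fold lower, adjusted p = 0.000988), while in young cells it was higher at 3% oxygen by 2.04. The 2 differences were apart by -2.75 (adjusted p = 7.5e-07). SLC2A1, the glucose transporter GLUT1, differed by -0.21 without being called (adjusted p = 0.265) and by 1.32 in young cells. IGFBP3 differed by -0.18 (adjusted p = 0.301) and by 1.39 in young cells, and VEGFA, the angiogenic factor, by 0.24 (adjusted p = 0.274) and by 0.37 in young cells (adjusted p = 0.0599).

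The shares called higher in old cells were 8.11% of HIF targets and 5.88% of glycolysis genes, near the 6.59% of all genes. Called lower were 27.0% and 23.5%, against 4.41% of all genes. EGLN3, an oxygen-sensing prolyl hydroxylase, had 1.20, 0.95 and 0.82 in old cells against -0.07, -0.44 and 0.04 in senescent cells (2.22-fold, adjusted p = 0.000232), and DDIT4, an inhibitor of mTOR signalling, was 1.76-fold higher. FAM162A, a mitochondrial protein, was 2.21-fold lower, with probe sets from -1.76 to 0.20. PPP1R3C, which directs glycogen synthesis, was 1.88-fold lower, with probe sets at -1.63 and -0.19. PKM, pyruvate kinase, was 1.36-fold higher, with probe sets at 0.14 and 0.75.

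Pregnancy-specific glycoproteins (PSG), secreted relatives of the CEA adhesion family best known from placenta, were lower in old cells in 8 of 9 cases (median -0.98). PSG4 had -0.55, -0.91 and -0.96 in old cells against 1.44, 1.57 and 1.64 in senescent cells (-2.36 ± 0.13, 5.12-fold lower, adjusted p = 9.61e-08), and PSG7 had -0.45, -0.42 and -0.59 in old cells against 1.58, 1.70 and 1.71 in senescent cells (4.43-fold lower). PSG1 was 2.53-fold lower and PSG3 2.21-fold. In young cells 4 of the 9 were called higher at 3% oxygen and 0 lower (median 0.48). The PSG genes are close copies of each other, so that probe sets may read several of them and the 8 calls are not separate evidence.

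The largest difference of all named genes was in LINC01116, a long noncoding RNA. It had 2.46, 2.29 and 2.62 in old cells against -3.03, -2.93 and -3.04 in senescent cells, without overlap (5.46 ± 0.14, 44.0-fold higher, adjusted p = 2.48e-10). In young cells it was higher at 3% oxygen by 4.52, and the late difference exceeded that by 0.94 (adjusted p = 0.012). ADGRL4, an adhesion G protein-coupled receptor known from endothelium, was 10.2-fold higher (1.19, 0.89 and 0.88 in old cells against -2.60, -2.83 and -1.69 in senescent cells). CD24, a surface glycoprotein, was 9.92-fold higher on average over probe sets that ran from 0.48 to 4.81.

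OCIAD2 had 0.35, -0.05 and -0.04 in old cells against -3.29, -2.77 and -2.46 in senescent cells (7.60-fold higher), and FGL2, a fibrinogen-like secreted protein, had -0.02, -0.31 and -0.43 in old cells against -2.78, -3.39 and -3.00 in senescent cells (6.97-fold higher). For both the senescent group was the low one, since young cells averaged 0.58 at 3% and 0.03 at 20% oxygen for OCIAD2, and 0.23 and 1.30 for FGL2. Probe sets of FGL2 gave differences of 1.77 and 3.83 between old and senescent cells.

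On the lower side, KRTAP1-5, a keratin-associated protein of hair, was at -1.28, -1.72 and -2.30 in old cells against 1.96, 1.99 and 1.95 in senescent cells (13.3-fold lower, adjusted p = 1.41e-07), and it was lower at 3% oxygen in young cells as well, by 2.93. SLC14A1, a urea transporter, had -3.18, -3.24 and -2.88 in old cells against 0.07, 0.03 and 0.13 in senescent cells (9.04-fold lower, adjusted p = 3.29e-09). Here the old group was the low one, with young means of -0.12 and 0.47 at 3% and 20% oxygen. RELN, the matrix glycoprotein reelin, had -1.91, -2.03 and -2.04 in old cells against 1.04, 1.07 and 1.02 in senescent cells (-3.04 ± 0.08, 8.20-fold lower, adjusted p = 3.21e-10), with young means of 0.11 and -0.07 between them.

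The other genes named as largest changes were lower in old cells: MOK, a MAP kinase relative (5.97-fold), DDIT4L, an mTOR inhibitor (5.96-fold), RASGRP1, an activator of Ras (5.80-fold), MEST, an imprinted gene (5.68-fold), and CLDN1, the tight junction protein claudin-1 (5.36-fold). Probe sets of CLDN1 gave -3.39 and -1.45. MOK stood out by its senescent values, 2.56, 2.54 and 2.36, against -0.01, 0.26 and -0.52 in old cells and young means of 0.00 and -0.11 at 3% and 20% oxygen.

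Lysosomes are known to accumulate in senescent cells. Lysosomal genes were called lower in old cells in 11 of 38 cases (28.9%, against 4.41% of all genes) and higher in 1 (median -0.20). Young cells had 7 of the 38 called lower at 3% oxygen and 2 higher (median -0.19). The test of the 2 differences called 2 of the 38 lower and 3 higher. CTSC, cathepsin C, was 2.24-fold lower, with probe sets from -1.65 to -0.45. PSAP, the saposin precursor, was 1.63-fold lower and CTSA, cathepsin A, 1.63-fold. Sterol and lipid synthesis had 5 of 22 called lower and 1 higher, led by STARD4, a cholesterol carrier (3.62-fold lower), and MSMO1, a sterol oxidase (3.55-fold). Heat shock chaperones had 4 of 15 called higher and 2 lower, among them HSPH1 (1.54-fold higher) and the small heat shock protein CRYAB (2.74-fold lower). The call of HSPH1 was lost with the most variable probe set per gene (0.34, adjusted p = 0.35). Of 33 targets of the unfolded protein response and the factor ATF4, 5 were called higher (15.2%) and 1 lower (3.03%, near the 4.41% of all genes). CHAC1, a glutathione-degrading enzyme, was 1.70-fold higher.

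Antioxidant enzymes had 4 of 18 called lower and 0 higher, PRDX6, a peroxiredoxin, being 1.57-fold lower. Targets of the oxidative stress factor NRF2 had 5 of 22 called lower and 0 higher, and HMOX1, heme oxygenase-1, differed by 0.16 without being called (adjusted p = 0.484). Of 8 metallothioneins 0 were called by limma, while 4 were lower in old cells at an unadjusted p under 0.05 (8.83% of all genes) and 6 had all old arrays below all senescent arrays (11.5% of all genes), with a median of -0.30. Metallothionein probe sets may read several of these related genes, so the counts are not separate evidence. Interferon and class I antigen genes had 4 of 36 called lower (11.1%, against 4.41% of all genes) and 0 higher. The lower ones included HLA-B (1.48-fold) and HLA-C (1.51-fold), whose probe sets may read related HLA genes. Nuclear subunits of the respiratory chain had 3 of 40 called lower (7.5%) and 0 higher, and cytosolic ribosomal proteins 1 of 29 lower (3.45%) and 0 higher, shares near the 4.41% of all genes called lower. Proteasome subunits had 3 of 25 called higher (12%, against 6.59% of all genes) and 0 lower.

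Of 18 sirtuins and telomere proteins 3 were called higher (16.7%, against 6.59% of all genes) and 1 lower (5.56%, near the 4.41% of all genes). TERF1, a telomere repeat binder, was 1.43-fold higher. Of 18 factors of lung fibroblast identity 4 were called higher (22.2%) and 1 lower (5.56%): TCF21, a mesenchymal factor, was 1.81-fold higher, TWIST1 1.63-fold, and the surface antigen THY1 2.00-fold lower.

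Markers of cells that a fibroblast culture could hold besides fibroblasts were looked at in the same way. Of 46 epithelial, endothelial, immune and mesothelial markers 0 were called by limma in either direction, with a median of -0.02 and a range from -0.50 to 0.28. At an unadjusted p under 0.05, 1 of them was higher in old cells, against 11.3% of all genes, and 3 were lower, against 8.83% of all genes. Of 10 smooth muscle and pericyte markers 2 were called higher and 2 lower, and of 14 fibroblast markers 2 higher and 3 lower. Because values are centred, the data do not show whether these markers were at background, nor can the labelled cell type be checked by level.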

How the data were processed

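RNA from 12 samples of IMR-90 cells in 4 groups of 3 was extracted with TRIzol and hybridised to 1-colour Affymetrix arrays of 54675 probe sets, per the labels' protocols. The authors summarised the arrays with RMA, per the submitters' processing notes; the version is not given in the sources used here. The deposited values carry no stated logarithm base and are taken as log2 because RMA gives that scale. Each probe set's median over the arrays is 0 (within 1e-06), so no level over background can be read and no filter on dim probe sets was possible. Precision is limited by 3 arrays per group.

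From these values, the 41091 probe sets that the platform annotation assigns to 1 gene were averaged per gene (19775 genes, 10523 of them with several probe sets); 1801 probe sets with several genes and 11721 with none were left out. Symbols were updated through Entrez identifiers in RefSeq tables (41037 of 41091 matched). Spreads between probe sets are given for some genes only, and other named genes also had probe sets that differed in size. limma 3.58.1 in R 4.3.3 fitted the 4 group means to all 12 arrays, with moderated variances and Benjamini-Hochberg adjustment over all genes at 0.05; the fit was tested on simulated data. Replicate numbers are given by the labels. Deviations of same-numbered old and senescent arrays from their group means correlated at 0.129, 0.519 and 0.669 across genes, but senescent replicate 2 and old replicate 1 also at 0.37. Same-numbered young 20% and senescent arrays gave 0.144, -0.477 and -0.5, and same-numbered young 3% and old arrays -0.127, 0.339 and -0.573. The numbers thus do not pair the samples in all groups. A replicate block was run only as an alternative, and over all 12 arrays it rests on numbers that these correlations do not bear out. Other alternatives were the choice of probe set, normalization, filter, array weights, the actin measure as a covariate, thresholds and each array left out in turn.

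Genes were named by rule: among called genes without overlap between the groups, the 15 with the most positive and the 15 with the most negative difference, then up to 4 members per list (46 lists) with the largest absolute change, and a panel of 32 genes, 29 of them measured; COL1A1 and ESRRA of the panel and some list members are not described. The members, lists and panel were chosen with earlier results of these data known, TCF4 was taken out of the Wnt list after its values were seen because that symbol is not the Wnt effector, and no test was made over a list. Promoter sequences are from RefSeq (GRCh38.p14), using the first start listed for a gene.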

Additional observations from a re-analysis of the deposited data

Results flagged for a closer look

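For 67 of the 135 genes named in the text, the difference of old cells at 3% oxygen from senescent cells at 20% oxygen differed from that between young cells at 3% and at 20% oxygen by limma's test of that contrast (adjusted p under 0.05). Over all 19775 genes 1273 (6.44%) were called on it. Most genes were named for a large late difference, which is itself a part of this contrast. The larger share among them therefore follows in part from how they were chosen and is not a result. The values below are the late difference minus the young difference on the log2 scale, and no explanation was weighed. Of the 67, 57 kept this call when each of the 12 arrays was left out in turn, 62 kept it with the replicate number as a block, and 0 changed sign when an array was left out. The 10 that lost it without at least 1 array were BRIP1, GADD45A, KIF11, LMNB1, MMP3, NDC80, NOTCH3, PRDX6, SOD2 and TGFB2, and the 5 that lost it with the block were GADD45A (adjusted p = 0.0617), KIF11 (0.0598), MMP3 (0.062), NDC80 (0.0667) and PRDX6 (0.0501).

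Some named cell cycle, repair and chromatin genes had larger late differences: KIF11 by 0.77, NDC80 by 0.85, KIF18B by 1.30, CTPS1 by 1.09, BRIP1 by 0.95, LMNB1 by 0.73, EZH2 by 0.92 and HMGB3 by 0.94. Most members of their lists were not called on this test. Called higher were 3 of 26 spindle and cytokinesis genes and 3 of 27 kinetochore genes, with 1 kinetochore gene lower. The counts were 0 of 42 replication genes, 1 of 20 recombination and Fanconi genes and 5 of 22 lamina and chromatin genes. Histone H2AC6 stood at -1.33, CDKN1A at -1.39, RRM2B at -0.97 and GADD45A at -0.46.

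Among secreted and matrix genes, the values were 2.03 for PTGS2, 1.32 for IL1B, 3.13 for CXCL8, 1.57 for IL6, 1.02 for PTX3 and 0.51 for SOD2. They were -1.09 for MMP1, -1.02 for MMP3 and -2.86 for CPA4. The matrix genes CTHRC1 (3.82), VCAN (1.09) and COL5A3 (2.30) were positive, and the crosslinking enzymes LOXL3 (-1.49) and LOXL4 (-1.33) negative.

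Signalling genes gave 3.20 for ID1, 1.31 for ID2, 2.05 for ID3, 1.55 for ID4, 2.33 for SMAD7 and -0.84 for TGFB2. Wnt genes gave 4.27 for WNT2, 1.62 for DKK1 and -1.39 for VANGL2. HEY1 stood at 1.31, NOTCH3 at -0.68, IGFBP2 at 1.41, NR4A2 at 1.77 and FOS at 3.73.

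Oxygen-regulated genes were negative: ENO2 at -2.75, SLC2A1 at -1.53, IGFBP3 at -1.57, DDIT4 at -1.84, FAM162A at -1.64 and PPP1R3C at -0.72. The pregnancy-specific glycoproteins were negative as well, PSG1 at -1.47, PSG3 at -2.50, PSG4 at -2.34 and PSG7 at -2.07.

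Among the other largest changes, the values were 0.94 for LINC01116, 2.38 for ADGRL4, 1.22 for CD24, 2.37 for OCIAD2 and 3.87 for FGL2. They were -2.59 for SLC14A1, -3.21 for RELN, -2.68 for MOK, -0.97 for DDIT4L, -1.89 for MEST and -0.82 for CLDN1. The remaining genes were ACTC1 (1.65), HSPH1 (1.51), STARD4 (-1.05), PRDX6 (-0.45), HLA-B (-0.72) and HLA-C (-0.76).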

How the results depend on the processing

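Of the 128 named genes called between old and senescent cells, 125 kept their call and direction under every one of up to 22 alternative settings and 0 reversed. Because these genes were named mainly for large differences on the same arrays, this was likely from the start. It does not describe the stability of all 2176 calls. HSPH1 and TAGLN lost it with the most variable probe set per gene, and GDF15 lost it in the settings given above and in a fit of the 6 arrays alone (adjusted p = 0.0531). The number of called genes, 2176, was 4137 with array quality weights, 3938 when probe sets were not averaged, 1305 at an adjusted p under 0.01 and 470 with a 2-fold minimum; the cause of the first was not tested. With the replicate block it was 2028 over all arrays and 2842 over the 6 old and senescent arrays, and the block changed no call of a named gene in this comparison other than that of GDF15. With single arrays left out it ranged from 1607 to 2261. The 2333 genes of young cells became 4316 without averaging, 1412 at 0.01 and 459 with a 2-fold minimum, and ranged from 1626 to 2455 with single arrays left out; a fit of the 6 young arrays alone, added after seeing the data, gave 1975. The 1273 genes whose 2 differences differed became 2684 with quality weights, 2475 without averaging, 624 at 0.01 and 452 with a 2-fold minimum, and ranged from 858 to 1411. Signal over background cannot be judged on centred values, so small differences of weakly expressed genes may be understated.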

Other observations

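Probe sets that the annotation assigns to no gene or to several were fitted apart from the report's comparisons. Of 13522 such probe sets, 368 were called as different in old cells at 3% oxygen from senescent cells at 20% oxygen, at an adjusted p under 0.05 over these probe sets alone (limma, 3 arrays per group), and they are given no names here.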
